A study of Mus musculus with 18 samples.

Results

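Intron circles are the circular RNAs whose back-splice junction the deposited Illumina tables place in the class intron. They were taken by that class label alone, which never differed between tables for the same circle, and they numbered 29728 of the 208914 distinct circles listed over all libraries. Of the other circles, 154490 were of exon class, 19016 of intergenic class and 5680 of antisense class. The circles come from whole brains of male C57BL/6J mice aged 3 to 4 months, in 3 genotypes with 3 biological replicates each. Wild type mice are the controls. Adar2KO mice are Adar2-/- Gria2R/R, that is, they lack the editing enzyme ADAR2 and carry the Gria2 allele that already encodes the edited residue. Adar1-2KO mice are Adar1E861A/E861A Ifih-/- Adar2-/- Gria2R/R: in addition to those alleles their ADAR1 is catalytically inactive and the RNA sensor encoded by Ifih1 is missing. Total RNA was depleted of ribosomal RNA, digested with RNase R, which degrades linear RNA, and reverse transcribed from random hexamers so that a circle is copied several times over. Each cDNA was read on Illumina (9 libraries analysed) and on Oxford Nanopore (ONT, 8 libraries analysed, without wild type replicate 1). In whole tissue, fewer cells of a type and less RNA per cell cannot be told apart.

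A circular RNA forms when a splice donor is joined to an acceptor that lies upstream of it. Most circles described in brain join the ends of annotated exons, and synaptic genes are known as rich sources. RNA can also become circular as an excised intron, joined at its branch point as a lariat, or through a back-splice that uses a splice site the annotation does not have. ADAR enzymes convert adenosine to inosine in double-stranded RNA, such as that formed by inverted repeats in introns, and such pairing is known to bring back-splice sites together.

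For each circle the Illumina tables give the reads across the back-splice (back-splice reads) and across the linear junctions at the same ends (forward-splice reads), and the junction ratio, which is the share of back-splice reads when each is weighted by 2. The ratio was measured after RNase R digestion, so it does not give the ratio in the tissue. The Illumina libraries held 1516772 to 4308264 back-splice reads on 21736 to 76743 circles, and the ONT libraries 186594 to 673705 reads on 22347 to 47174 circles. Adar1-2KO replicate 3 stood apart: it had the most reads and listed the fewest circles on Illumina, and results that rest on it are given without it too. The cDNA was amplified by PCR without molecular identifiers, so reads are not independent molecules.

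Intron circles took a similar share of each library. Wild type libraries listed 8399, 6878 and 5388 of them, Adar2KO libraries 7872, 7258 and 7466, and Adar1-2KO libraries 8038, 6235 and 1784. As a share of all listed circles this was 10.5 ± 0.508% in wild type (SD, n = 3), 11.01 ± 0.101% for Adar2KO and 10.03 ± 1.63% for Adar1-2KO. The groups overlapped, and the low Adar1-2KO mean came from replicate 3, at 8.21%. The difference from wild type was -0.434 percentage points (two-sided exact permutation p = 0.8), and it turned to 0.479 without that library.

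Their share of back-splice reads was smaller than their share of circles. It was 3.15%, 3.32% and 3.18% (wild type), 3.29%, 3.42% and 3.40% (Adar2KO) and 3.54%, 3.43% and 3.56% (Adar1-2KO). All 3 Adar1-2KO libraries lay above all 3 wild type libraries, by 0.294 percentage points on average. That gives the smallest p the design allows (two-sided exact permutation p = 0.1, adjusted p = 0.4 over 6 comparisons). The Adar2KO difference of 0.154 points had an exact permutation p of 0.2 (adjusted p = 0.4).

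The median junction ratio of intron circles was 0.500, 0.467 and 0.571 (wild type), 0.474, 0.490 and 0.500 (Adar2KO) and 0.500, 0.556 and 0.777 (Adar1-2KO). The last of these values, from replicate 3, lay far above the others. The Adar1-2KO difference of 0.0983 had an exact permutation p of 0.5 and fell to 0.0153 without that library. The Adar2KO difference of -0.0248 had an exact permutation p of 0.7.

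**Figure D1:**
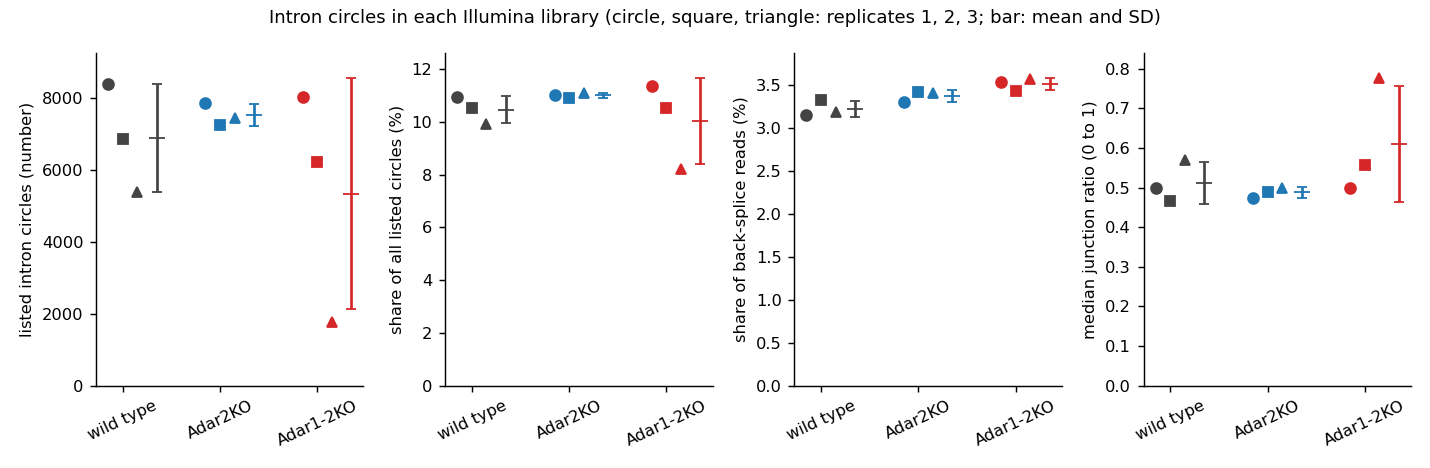
Intron circles in each of the 9 Illumina libraries: the number listed, their share of listed circles (%), their share of back-splice reads (%) and their median junction ratio (0 to 1), by genotype, with points for replicates 1 (circle), 2 (square) and 3 (triangle) and bars for the mean and SD of 3. Adar1-2KO replicate 3 lists 1784 circles and has the highest median ratio, 0.777, while its share of reads, 3.56%, is close to that of the other Adar1-2KO libraries.

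Intron circles were longer, had fewer back-splice reads and had a higher junction ratio than exon circles of the same libraries. The median genomic span was 22604 bases for intron circles and 12675 for exon circles, averaged over libraries, and it was longer in 9 of 9 libraries (exact sign-flip permutation p = 0.00391, adjusted p = 0.00521 over 4 comparisons). The median circle had 5.67 back-splice reads against 9.22 in exon class, lower in 9 of 9 libraries, with the same exact permutation p and adjusted p. This difference of -3.56 reads was -1.63 without Adar1-2KO replicate 3. The median junction ratio was 0.537 against 0.234, higher in 9 of 9 libraries, again with the same p. The share of circles with no forward-splice read at all was 25.1 ± 1.13% in intron and 25.9 ± 4.16% in exon class (SD, n = 9), lower in intron class in 6 of 9 libraries, and this difference was not tested. The libraries share their circles and animals of 1 strain, so these tests speak of the classes in these brains. Against intergenic circles, the difference of -0.444 in median reads (exact permutation p = 0.25) and that of 0.00872 in junction ratio (exact permutation p = 0.688) did not pass.

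Spans ran from 138 to 199999 bases over the whole class. Spans of 50 to 100 kb made up 16.6% of intron and 7.59% of exon circles, and spans over 100 kb 11.3% and 3.40%. At the short end, 6.21% of intron circles and 6.996% of exon circles spanned under 1 kb, against 45.3% of intergenic circles. Among the intron circles tested between genotypes, the longest lay in Lingo2, a leucine-rich repeat membrane protein (chromosome 4, 36718867 to 36918490). The next was in Mei4, a meiotic recombination gene (chromosome 9, 81945735 to 82145333). The Lingo2 circle had 18, 8 and 1 reads (wild type), 13, 4 and 2 (Adar2KO) and 8, 11 and 364 (Adar1-2KO). A single library, Adar1-2KO replicate 3, held most of its reads. The shortest tested circles lay in Pde4d, a cyclic AMP phosphodiesterase (chromosome 13, 108790639 to 108790799), and Rbfox1, a neuronal splicing factor (chromosome 16, 6627071 to 6627275). The Rbfox1 circle was listed in all 9 libraries, with 65, 29 and 86 reads (wild type), 95, 51 and 112 (Adar2KO) and 98, 88 and 5 (Adar1-2KO).

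**Figure D2:**
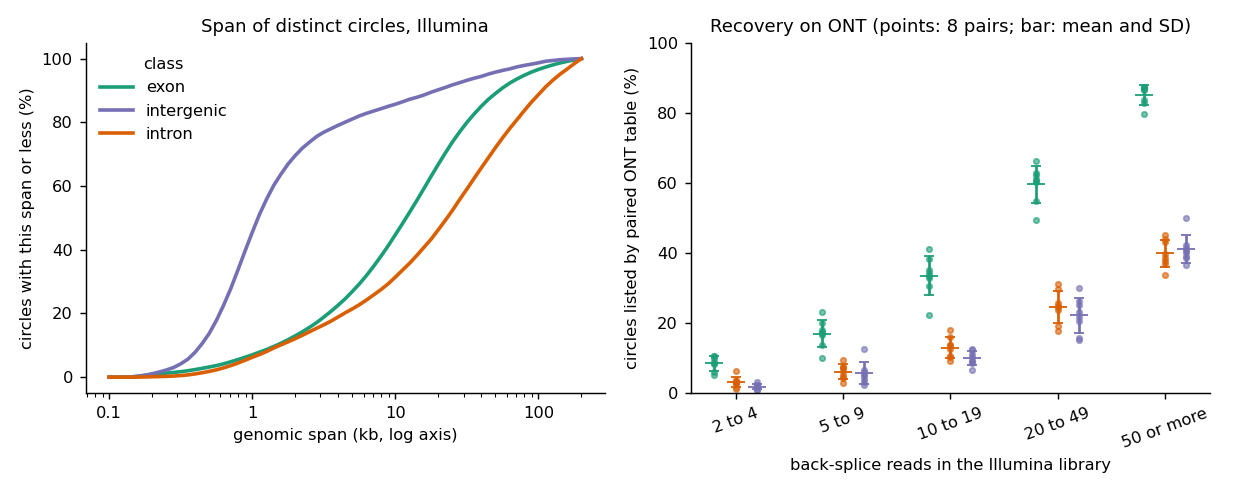
Left, the share of distinct Illumina circles (%) with a genomic span up to the value on the log axis (kb), by class; the intron curve lies to the right of the exon curve. Right, the share of circles (%) that the ONT table of the same genotype and replicate number also lists, by back-splice reads in the Illumina library, with 8 points per class and bars for mean and SD; at 50 reads or more it is 39.9% for intron and 85.1% for exon circles.

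A small core of the class recurred while most members were seen once. Of the intron circles, 19782 (66.5%) were listed in a single library, and together these held 15.1% of the 840540 intron back-splice reads. At the other end, 407 (1.37%) were listed in all 9 libraries and held 41.3% of the reads. Exon circles recurred more: 49.01% were listed once and 5.79% in all 9, and the latter held 80.0% of exon reads. The 10 intron circles with most reads held 14.2% of the reads of the class, against 7.81% for the 10 largest exon circles. A count of at least 5 reads in at least 3 libraries, the minimum for the tests between genotypes, was met by 2911 intron circles (9.79%) and by 22.1% of exon circles.

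The ends of the circles show how the class relates to exon circles. No intron circle had both of its ends in use by exon circles of the tables. In 8760 (29.5%) the acceptor end was also the acceptor end of an exon circle, in 10770 (36.2%) the donor end was also a donor end, and in 10198 (34.3%) neither was. The 19530 with 1 such end held 74.4% of the reads. The class label itself depends on the ends, so the absence of circles with both ends shared is not independent of how the members were chosen.

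Within the class, circles with 1 end in use by exon circles differed from those with none. Their median span was 25153 ± 807 bases (SD over 9 libraries) against 14791 ± 1768, longer in 9 of 9 libraries (exact sign-flip permutation p = 0.00391, adjusted p = 0.00781 over 4 comparisons). Their median junction ratio was 0.586 ± 0.0886 against 0.432 ± 0.116, higher in 9 of 9, with the same exact permutation p. The median number of back-splice reads was the same in every library, 5.67 on average. These comparisons were chosen after the ends had been seen.

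The class drew on 8200 host genes or combinations of overlapping genes. Of these hosts, 3974 (48.5%) gave 1 intron circle and 2424 (29.6%) gave no exon circle. Hosts whose names are provisional gene models (Gm numbers, LOC and Rik clones), many of them non-coding, gave 16.4% of intron circles and 17.2% of their reads. The same kind of host gave 2.04% of exon circles and 1.18% of exon reads. The host with the most intron circles was Snhg14, a long non-coding RNA that hosts arrays of small nucleolar RNAs, with 341. It was followed by Gm33228 with 106, A230006K03Rik with 95, Dab1, the adaptor of reelin signalling, with 86, and Anks1b, a postsynaptic scaffold protein, with 85. Rims2 had 75, 6530403H02Rik 72, Rims1 71, Rbfox1 69 and Lingo2 66.

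The order by reads was different, because in most leading hosts 1 circle held nearly all of them. Rims1, a scaffold of the presynaptic active zone, had 38806 intron reads, of which 95.1% came from 1 circle, and these were 16.95% of all its intron and exon circle reads. Snhg14 had 32493 reads, with 12.4% from its largest circle. Rims2, a paralog of Rims1, had nearly as many distinct intron circles but 2211 reads, 0.739% of its circle reads. In E2f5, a transcription factor of the E2F family, 99.7% of 9161 intron and 26 exon circle reads were intron reads. Zfp652, a zinc finger protein, had 7651 intron reads and no exon circle. Ankrd12, an ankyrin repeat protein, lay at the other side, with 12148 intron and 116567 exon circle reads.

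Most genes on the neuronal lists hosted intron circles, but no rate over all genes was set beside them. All 42 genes on a list of neuronal adhesion genes hosted intron circles, 1082 in all with 32578 reads. Among them were Dab1 (3736 reads), Pcdh15, a cadherin (3305), Csmd1, a complement control protein of synapses (2683), and Nrxn3, a presynaptic neurexin (2310). Of 26 presynaptic genes 25 were hosts, with 512 circles and 50767 reads, 6.04% of the class. Most of these reads came from Rims1 (38806), followed by Stxbp5 (3478). Of 24 glutamate receptor genes 23 were hosts (348 circles, 8416 reads), and of 27 voltage-gated channel genes 24 (284 circles, 7465 reads). Of 18 GABAergic genes 14 were hosts, with 91 circles and 743 reads.

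Marker lists of other cell types gave 21 to 1065 reads each, beside 743 for the GABAergic list. The lists differ in their number of genes and were not compared by a test. Of 11 astrocyte markers 5 were hosts, with 1065 reads, most from Gpc5 (743), a glypican. Of 15 oligodendrocyte lineage markers 9 were hosts, with 791 reads. Microglial markers gave 21 reads from 2 of 8 genes, endothelial markers 24 reads from 6 of 9, and ependymal and choroid plexus markers 97 reads from 6 of 10. Among the genes altered in these mice, Gria2, a glutamate receptor subunit, had 11 intron circles with 81 reads and Adarb1, which encodes ADAR2, had 7 with 38. Of 23 genes with known recoding sites 15 were hosts, led by Grik2, a kainate receptor subunit, with 1707 reads. Of 28 splicing and circular RNA regulators 20 were hosts, led by Rbfox1 (1991 reads) and Rbfox3 (1923).

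The Snhg14 region on chromosome 7 held the largest circles among those seen in 1 library only. Counting every circle that names it, alone or with overlapping genes, there were 405 circles between 58847539 and 60194059, with 33999 reads, or 4.04% of the class. Of these 77.3% were listed in 1 library, 19 met the count minimum and 0 were listed on ONT. The region's share of intron reads ranged from 2.76% to 6.82% over the libraries. In each of the 9 libraries, the intron circle of most reads among those seen nowhere else was a Snhg14 circle. Those circles held 1091, 1231 and 582 reads (wild type), 1285, 2991 and 1033 (Adar2KO) and 1013, 1444 and 4016 (Adar1-2KO). The region is known to hold tandem, near-identical copies, so where a read is placed within it, and hence the identity of each such circle, is uncertain.

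The most abundant intron circle lay in Rims1 (chromosome 1, 22416517 to 22464172, minus strand). It had 4444, 3717 and 2548 back-splice reads (wild type), 3313, 3545 and 3528 (Adar2KO) and 4685, 3416 and 7709 (Adar1-2KO). Scaled to library size with edgeR's TMM factors this was 1492 ± 207 CPM (CPM are reads scaled to a common library size; SD over 9 libraries). Its junction ratio was at least 0.997 in every library. ONT read it 462 and 482 times (wild type), 829, 587 and 942 (Adar2KO) and 766, 540 and 1739 (Adar1-2KO). No genotype stood apart: the log2 fold changes were -0.22 ± 0.16 in Adar2KO and 0.03 ± 0.16 in Adar1-2KO against wild type (SE, n = 3, edgeR adjusted p = 1 for both).

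A circle of Rmst, a long non-coding RNA of neurogenesis, was next (chromosome 10, 91911032 to 91972552). It had 1762, 1675 and 911 reads (wild type), 1662, 1593 and 1457 (Adar2KO) and 1687, 1118 and 1404 (Adar1-2KO), with a junction ratio of 1 throughout. In CPM it had 625 ± 104, 607 ± 107 and 444 ± 89.7 in these groups (SD, n = 3). The third was a circle of 6530403H02Rik (chromosome 3, 120566331 to 120593396), with 1334, 1055 and 723, then 1109, 1398 and 1549, then 2226, 1494 and 2615 reads. Its CPM was 449 ± 23.0 in wild type and 651 ± 13.9 in Adar1-2KO, without overlap, and the log2 fold change of 0.54 ± 0.20 did not pass (edgeR adjusted p = 0.718). No ONT library listed it.

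The E2f5 circle was short (chromosome 3, 14652370 to 14653373), at 933, 906 and 534 reads (wild type), 635, 770 and 1289 (Adar2KO) and 1271, 571 and 2242 (Adar1-2KO). The Zfp652 circle (chromosome 11, 95639826 to 95644881) had 1050, 1141 and 564, then 695, 838 and 997, then 720, 619 and 645 reads. Its CPM was 398 ± 94.95 for wild type, 322 ± 48.04 for Adar2KO and 214 ± 57.8 for Adar1-2KO (log2 fold change of the last against wild type -0.89 ± 0.29, edgeR adjusted p = 0.718). The wild type and Adar1-2KO groups did not overlap in CPM (lowest wild type 333, highest Adar1-2KO 272) but did in raw reads.

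Others among the 10 most abundant circles lay in Gm2164, Ankrd12, Aig1 and Ogdh. Their mean levels were 453, 417, 293 and 211 CPM over the 9 libraries. Aig1 encodes a hydrolase of lipids, and Ogdh a subunit of a mitochondrial dehydrogenase complex of the citric acid cycle. The Aig1 circle spanned 546 bases on chromosome 10, from 13677148 to 13677693, and Adar1-2KO replicate 3 had the fewest reads of it, 330 against 489 to 1241 in the other libraries. The Ogdh circle (chromosome 11, 6261009 to 6267080) had the lowest mean junction ratio of the 10, 0.551. None of the 10 passed in any comparison between genotypes.

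The junction ratio differed widely among abundant circles. Among intron circles with at least 20 reads in every library, a second Rmst circle with the same acceptor end (chromosome 10, 91911375 to 91972552) had a mean junction ratio of 0.0460, from 0.0320 to 0.0640 over libraries. It had 72, 59 and 43 reads (wild type), 73, 96 and 76 (Adar2KO) and 80, 37 and 132 (Adar1-2KO). Within 1 gene, circles that differ only in the donor end thus had mean ratios of 0.0460 and 1.

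Adar2KO mice differ from wild type in both the Adar2 and the Gria2 alleles, whose effects cannot be told apart here. No intron circle passed in the edgeR quasi-likelihood test over all 38297 circles, among which 0.0209% passed (adjusted p under 0.05). Of the 2911 intron circles 65 (2.23%) had an unadjusted edgeR p under 0.05, against 1.82% of all circles. DESeq2 called 0 too, against 0.0914% of all circles. The intron median log2 fold change was 0.12 against 0.04 over all circles. The groups did not overlap in 10.5% of intron circles, against 10.9% of all circles.

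Some circles of lowest p were on 1 side only, without passing. A circle of Mllt6, a chromatin-associated protein (chromosome 11, 97563419 to 97564262), had 21, 23 and 12 reads in Adar2KO and none in wild type or Adar1-2KO. With a floor of 3 reads per library this was at least 5.11-fold higher than wild type (edgeR adjusted p = 1). ONT read it 9, 6 and 12 times in Adar2KO, 0 times in wild type and 3 times in 1 Adar1-2KO library. A circle that names Snord14a, a small nucleolar RNA (chromosome 7, 115932352 to 115932930), had 36, 25 and 37 reads in Adar2KO, none in wild type and 13 in 1 Adar1-2KO library (edgeR adjusted p = 1). ONT read it 4 times in 1 wild type library and 3 times in 1 Adar2KO library. Circles of D130040H23Rik (20, 9 and 18 reads), Gm33605 (18, 21 and 10) and Fam171b (8, 4 and 13) were listed in every wild type Illumina library. No Adar2KO Illumina library listed them, again with edgeR adjusted p = 1. In Adar1-2KO they had 4, 5 and 0, then 0, 2 and 0, then 6, 2 and 5 reads. ONT read the Fam171b circle 2 times in 1 Adar2KO library and 0 times in wild type, so in Adar2KO it was not absent. In the authors' deposited table for this comparison, 74 of the 772 circles listed were of intron class. The highest unadjusted p listed was 0.04999, so the 772 are not all circles tested. Of the 74, 2 had an adjusted p under 0.05, among 46 circles of all classes. They were Snord14a (log2 fold change 5.56, adjusted p = 0.00292) and a Snhg14 circle (log2 fold change -4.00, adjusted p = 0.0263).

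The comparison of Adar1-2KO with wild type spans the Adar1, Ifih1, Adar2 and Gria2 alleles, whose effects cannot be told apart. This comparison uses the same wild type libraries as the one above. Of the intron circles 2 passed, 1 higher (Stxbp5) and 1 lower (A230057D06Rik), while 0.0627% of all circles passed in the edgeR test. Unadjusted, 236 intron circles (8.11%) had an edgeR p under 0.05, against 6.74% of all circles. DESeq2 called 20 (0.687%), against 0.47% of all circles. The intron median log2 fold change was -0.24 against -0.26 over all circles. Without Adar1-2KO replicate 3 the medians were 0.04 and -0.03 and 5 intron circles (0.178%) passed, against 0.123% of all circles. The groups did not overlap in 11.4% of intron circles and in 12.6% of all circles.

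The circle that rose lay in Stxbp5, which encodes tomosyn, an inhibitor of SNARE complex assembly at synapses (chromosome 10, 9717615 to 9744497, minus strand). It had 24, 5 and 14 back-splice reads (wild type), 22, 6 and 37 (Adar2KO) and 1292, 713 and 973 (Adar1-2KO). Every Adar1-2KO library was far above every other library, and wild type and Adar2KO overlapped. The log2 fold change against wild type was 5.64 ± 0.67 (SE, n = 3, edgeR adjusted p = 0.00299). It passed in 17 of 18 other settings. Among these, requiring the class in every table left the fit unchanged, and an adjusted p under 0.1 only loosened the cut. Both were thus bound to pass. The exception was the set of libraries from 1 flow cell, which holds 1 Adar1-2KO library and so no spread within that genotype. The mean junction ratio was 0.885 for wild type, 0.860 for Adar2KO and 0.988 for Adar1-2KO, so that most reads at these ends were back-splice reads in each genotype. In the authors' deposited table its log2 fold change was 5.41 (adjusted p = 5.19e-05).

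ONT gave the same order for the Stxbp5 circle. It was read 0 and 0 times (wild type), 2, 0 and 7 (Adar2KO) and 79, 49 and 137 (Adar1-2KO). Against Adar2KO the ONT log2 fold change was 4.64 ± 0.76 (SE, edgeR adjusted p = 0.0331), which passed in 3 of 11 other settings. Against wild type, with 2 libraries at 0, the edgeR adjusted p was 0.194.

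The ONT reads resolved this circle into 5 blocks, of which 4 were also the blocks of an exon circle with the same donor end (chromosome 10, 9717615 to 9742424). The block of its own, 9744365 to 9744497, lies at the acceptor end and is 133 bases long. As deposited, the intron circle is 496 bases long and the exon circle 364. That exon circle had 38, 5 and 15 Illumina reads (wild type), 23, 28 and 65 (Adar2KO) and 28, 4 and 1 (Adar1-2KO). ONT read it 2 and 2 times in wild type, 11, 7 and 2 times in Adar2KO and 0 times in each Adar1-2KO library. The exon circle was thus not higher where the intron circle was, and its groups overlapped on Illumina (log2 fold change against wild type -1.19).

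The acceptor end at 9744497 was used by 8 Stxbp5 circles in all, each of intron class. All 8 had more reads in Adar1-2KO than in the other genotypes, and 6 were listed in Adar1-2KO only. The second of them by reads (9740757 to 9744497) had 144, 29 and 16 reads in Adar1-2KO and none elsewhere, and ONT read it 5 and 2 times in 2 Adar1-2KO libraries. The third (9711578 to 9744497) had 25, 11 and 1 reads in Adar1-2KO, 1 read in wild type and 7 in Adar2KO. The remaining 5 had 1 to 11 reads. These circles share the end by which they were chosen, after its values were seen.

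The circle that fell lay in A230057D06Rik, a long non-coding gene (chromosome 7, 61575059 to 61581241, minus strand). It had 61, 38 and 43 reads (wild type), 50, 65 and 61 (Adar2KO) and 0 in each Adar1-2KO library. With the floor of 3 reads per library this was at least 21.9-fold lower than wild type (edgeR adjusted p = 0.0495). The call was narrow: it held in 5 of 18 other settings, and the edgeR adjusted p reached 0.210. Of the 5, the setting with the class required in every table left the fit unchanged, and that with an adjusted p under 0.1 only loosened the cut. Both were bound to hold. ONT listed this circle in no library. In the authors' deposited table it had a log2 fold change of -6.38 and an adjusted p of 0.0192.

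Other A230057D06Rik circles were listed in the same libraries. Of the 7 circles with at least 100 reads that name this gene alone, 6 had no read in any Adar1-2KO library, 4 of intron and 2 of exon class. This set was chosen after its values were seen. The largest was the exon circle from 61561111 to 61575168, with 843, 368 and 440 reads in wild type and 819, 696 and 747 in Adar2KO. The seventh, an intron circle from 61533001 to 61575168 with the same acceptor end, had the opposite pattern, with 90, 64 and 143 reads in Adar1-2KO and none in the other 6 libraries. That is at least 20.8-fold higher than wild type (edgeR adjusted p = 0.231). DESeq2 called this circle, and in the authors' deposited table its log2 fold change was 6.76 (adjusted p = 0.00455). The gene was not without circles in Adar1-2KO otherwise. An intron circle that also names Mir344c and Mir344 (61463010 to 61564119) had 17, 8 and 10 reads there. It had 12, 6 and 6 reads in wild type and 27, 22 and 17 in Adar2KO. Of the 20 intron circles that DESeq2 called in this comparison, 7 named A230057D06Rik or a neighbouring Mir344 microRNA gene, all between 61463010 and 61744426 on chromosome 7.

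**Figure D3:**
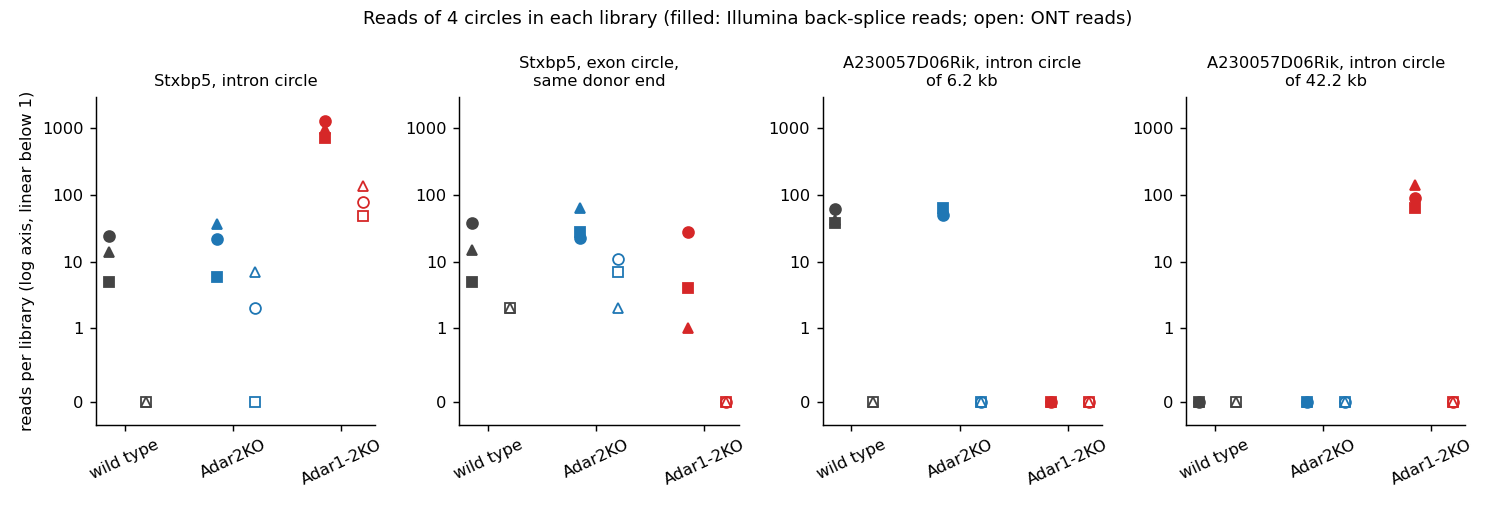
Reads per library (log axis, linear below 1) of 4 circles by genotype: filled symbols are Illumina back-splice reads and open symbols ONT reads, with circle, square and triangle for replicates 1, 2 and 3. The Stxbp5 intron circle has 713 to 1292 Illumina reads in Adar1-2KO and at most 37 elsewhere, the Stxbp5 exon circle with the same donor end does not rise, and the A230057D06Rik circles are at 0 on opposite sides.

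Of the circles of next lowest p in this comparison, none passed in edgeR, while DESeq2 called each of those that follow. Gm13483, a non-coding gene (chromosome 2, 50323107 to 50372694), had 179, 151 and 24 reads (wild type), 108, 61 and 69 (Adar2KO) and 4, 3 and 0 (Adar1-2KO) (log2 fold change -5.79 ± 1.14, edgeR adjusted p = 0.150). Epha5, an ephrin receptor (chromosome 5, 84381442 to 84413498), had 37, 24 and 29, then 40, 20 and 64, then 0 reads in each Adar1-2KO library (edgeR adjusted p = 0.156). ONT listed the Epha5 circle with 2 reads in 1 Adar1-2KO library, so there it was not absent. A Snhg14 circle (chromosome 7, 59116181 to 59160442) had 29, 23 and 99 reads (wild type), 3, 5 and 0 (Adar2KO) and 0 in each Adar1-2KO library (edgeR adjusted p = 0.347). In the authors' deposited table for this comparison 9 of 21518 intron circles had an adjusted p under 0.05, 4 higher and 5 lower, among 54 of 160909 circles of all classes. The Gm13483 circle (log2 fold change -4.60, adjusted p = 0.0365) and the Snhg14 circle (-6.50, adjusted p = 0.0192) were among the 9. The Epha5 circle was not (adjusted p = 0.134). Unadjusted p ran up to 0.999999 here, unlike in the Adar2KO table, so the shares called in the 2 tables do not compare.

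Adar1-2KO against Adar2KO, which differ in the ADAR1 and Ifih1 alleles, shares its libraries with the comparisons above. Of the intron circles 1 passed, Stxbp5, with a log2 fold change of 5.30 ± 0.66 (SE, n = 3, edgeR adjusted p = 0.00996), while 0.0209% of all circles passed. It passed in 14 of 18 other settings, including the settings named above that were bound to pass. It did not pass without Adar1-2KO replicate 1 or 2, or without Adar2KO replicate 1. Nor did it pass in the libraries of 1 flow cell, which hold 1 library of each of these genotypes. DESeq2 called 27 intron circles (0.928%), against 0.454% of all circles. At an unadjusted edgeR p under 0.05 there were 233, and 6.38% of all circles. The A230057D06Rik circle had an edgeR adjusted p of 0.0645 here. The intron median log2 fold change was -0.37 against -0.31 over all circles, and -0.07 against -0.06 without Adar1-2KO replicate 3, where 5 intron circles passed, with 0.0747% of all circles. The groups did not overlap in 10.6% of intron and 11.8% of all circles.

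The flow cells named in the read headers touch these comparisons. All wild type libraries, Adar2KO replicate 3 in the main and Adar1-2KO replicate 2 were read on 1 flow cell, and the others with a known flow cell on different ones. For Stxbp5 the 1 Adar1-2KO library on the wild type flow cell had 713 reads, against 5 to 24 in wild type. This is a single library, and the flow cell of Adar1-2KO replicate 1 is not known. The part of the flow cell in these counts was not tested.

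On the circular share, the log2 ratio of back-splice to forward-splice reads, 188 intron circles with enough reads entered a limma fit of 6353 circles. None passed in any comparison, while 0.0787% of all circles passed for Adar2KO against wild type, 0.0944% for Adar1-2KO against wild type and 0.189% for Adar1-2KO against Adar2KO. At an unadjusted limma p under 0.05 there were 5, 8 and 10 intron circles (2.66%, 4.26% and 5.32%), against 2.93%, 4.79% and 5.13% of all circles. DESeq2, a count model, was not run on it.

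Across the 13 functional lists, the only call was the Stxbp5 circle described above. It is 1 of 63 tested on the presynaptic list and says nothing of that list. It rose in Adar1-2KO against wild type and against Adar2KO, where 0.0627% and 0.0209% of all circles passed. The altered genes and the microglial, endothelial and ependymal markers had 0 tested circles, the oligodendrocyte list 1 and the GABAergic list 4. Median log2 fold changes of the presynaptic list were -0.34 and -0.22, beside -0.26 and -0.31 over all circles. None of the 133 tested circles of neuronal adhesion genes passed, with medians of 0.03 for Adar2KO and -0.09 for Adar1-2KO against wild type. None of the 42 circles of glutamate receptor genes passed (medians -0.24 and -0.26), nor of the 23 circles of splicing and circular RNA regulators (0.63 and -0.16). The 18 circles from hosts of known recoding sites had medians of -0.19 and -0.03, with no call.

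ONT recovered a minor part of the class, and less of it than of exon circles with as many reads. At exactly the same ends, 2362 intron circles (7.95%) were listed in an ONT table, and they held 39.8% of the Illumina intron reads. Of exon circles 42627 (27.6%) were listed. Comparing each Illumina library with the ONT table of the same genotype and number, and only circles of 10 to 19 Illumina reads, 12.97 ± 3.04% of intron and 33.5 ± 5.55% of exon circles were found (SD, n = 8). The intron share was lower in 8 of 8 pairs (exact sign-flip permutation p = 0.00781, adjusted p = 0.00781). At 50 reads or more the shares were 39.9 ± 3.96% and 85.1 ± 2.82%. Intergenic circles were at 9.98 ± 2.00% and 41.0 ± 4.04% in the same bands.

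Recovery differed within the class by the ends. Of circles with 10 to 19 reads and 1 end in use by exon circles, 15.1 ± 3.595% were found on ONT, against 7.96 ± 1.90% of those with none (higher in 8 of 8 pairs, exact permutation p = 0.00781, adjusted p = 0.0104). All 8 ONT libraries listed 58 of the intron circles. Of the 10 most abundant circles on Illumina, 6 were read by all ONT libraries and 4 by none, among them 6530403H02Rik, Gm2164 and Ankrd12. The mean levels of these 3 on Illumina were 539, 453 and 417 CPM, and those of the 6 that were read ran from 211 to 1492 CPM.

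The ONT reads show what lies inside the recovered circles. Of the 2362, 9.53% were read as 1 block and the median had 4 blocks, against 3.96% and a median of 5 for exon circles. A block is a stretch aligned without a splice. The median length was 646.5 bases for intron and 678 for exon circles, or 3.52% and 5.83% of the genomic span. Most recovered intron circles were thus read as spliced, with short blocks in a long span. An AG-GT site pair at the back-splice was reported for 98.7% of them and for 98.6% of the recovered exon circles. These shares leave aside an asterisk on the site label, which 98.2% of the intron and 6.02% of the exon circles carried. What the asterisk stands for was not examined here. Circles read as 1 block were 29.5% of those with neither end in use by exon circles, 5.41% of those with a shared acceptor end and 2.61% of those with a shared donor end.

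Single circles show these forms. The Rims1 circle was read as 5 blocks with a deposited length of 628 bases in a span of 47656 bases, and its first block, at the acceptor end that exon circles do not use, was 30 bases long. That block lies at 22464143 to 22464172 on chromosome 1. Rmst had 11 blocks and 1838 bases in 4 of the 8 ONT libraries that list it, with other blocks in the rest. In all 8, Zfp652 had 4 blocks and 1553 bases, Ogdh 3 blocks and 407 bases, and E2f5 2 blocks and 282 bases. The Aig1 circle was read as 1 block over its whole span.

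**Figure D4:**
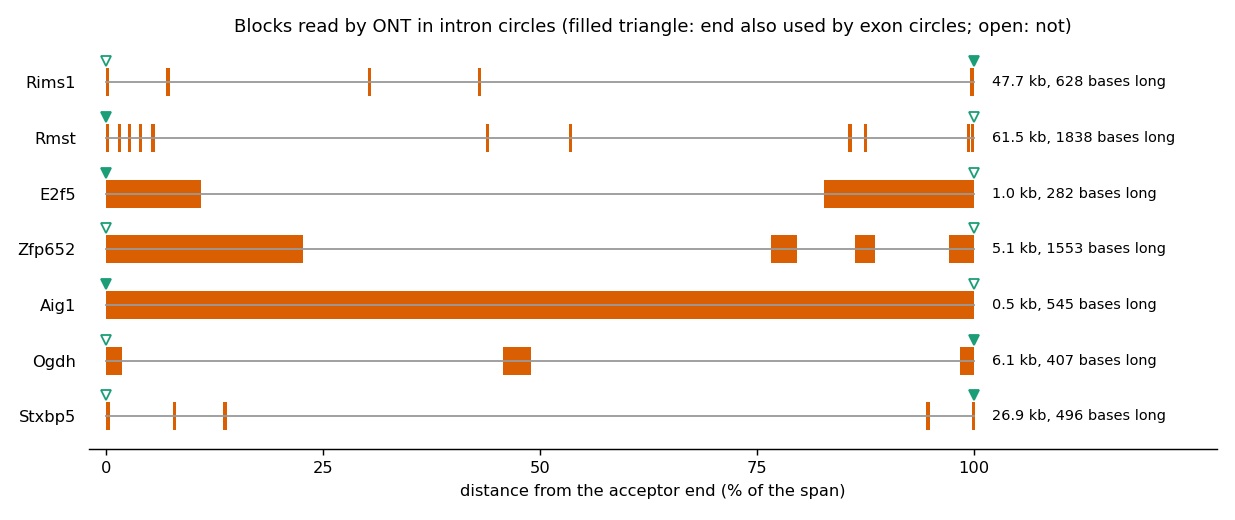
Blocks read by ONT (filled boxes) in 7 intron circles, drawn by distance from the acceptor end as a percentage of the genomic span, with the span (kb) and the deposited length in bases at the right. Filled triangles mark ends that exon circles also use and open triangles ends that they do not; Rims1, Rmst, Ogdh and Stxbp5 hold short blocks in a long span, and Aig1 is 1 block.

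In ONT levels, a pair of circles of Hivep2, a zinc finger transcription factor, moved in different directions without passing. The circle at chromosome 10, 13879945 to 13886959, was read 2 and 5 times (wild type), 10, 7 and 8 (Adar2KO) and 30, 12 and 96 (Adar1-2KO). The one at 13942327 to 13961826 was read 26 and 14, then 68, 46 and 52, then 24, 12 and 5 times. On ONT 195 intron circles among 10367 were tested with edgeR. For Adar2KO against wild type 0 intron circles passed, with 0.00965% of all circles (at an unadjusted edgeR p under 0.05, 8 intron circles and 4.28% of all circles; DESeq2 0, with 0.0965% of all circles). For Adar1-2KO against wild type 0 passed, with 0% of all circles (at an unadjusted edgeR p under 0.05, 10 intron circles and 7.49% of all circles; DESeq2 1, the Rmst circle, with 0.482% of all circles). For Adar1-2KO against Adar2KO 1 passed, Stxbp5, with 0.492% of all circles (at an unadjusted edgeR p under 0.05, 18 intron circles and 10.6% of all circles; DESeq2 1, with 1.75% of all circles).

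The ONT tables have an intron class of their own, made up mainly of short unspliced circles. It held 16405 circles, of which 14023 were not listed on Illumina. Of these 83.0% were read as 1 block, their median span was 903 bases, 64.2% had an AG-GT site pair and 22.6% had no site reported. The ONT tables mark 1375 distinct circles as lariats, 94 to 297 in each library. Of those 21 were of ONT's intron class and 1354 of its intergenic class. None of them was among the Illumina intron circles, and 1 was listed on Illumina at all.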

How the data were processed

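The authors deposited, per circle and Illumina library, back-splice and forward-splice counts and a junction ratio (a fraction from 0 to 1), made with CIRIquant per the file headers. The deposited ONT tables give a read count per circle and its blocks, and held no circle under 2 reads. The authors' comparison tables give log2 fold changes and p-values, per the file headers. Coordinates are of build GRCm39. BWA 0.7.17 and DESeq2 2.11.40.8 are named in the submitters' processing notes. In the Adar1-2KO Illumina tables values sit 1 column to the right of the header and were read accordingly. Deposited ONT lengths count 1 base fewer per block than first to last base.

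Circles of any class reaching 5 reads or more in 3 libraries or more entered a fit of their counts in edgeR 4.0.16 (quasi-likelihood, TMM, all libraries in 1 fit, Benjamini-Hochberg over all circles, 0.05), with DESeq2 1.42.0 as an alternative. Circular share (log2, pseudocount 0.5, at least 20 reads of both kinds together in every library) used limma 3.58.1, in R 4.3.3. Both were checked on simulated data. The SE of an edgeR log2 fold change is its absolute value divided by the square root of the F statistic. It rests on the fit of all libraries, and the n beside it is the number of libraries per genotype. Single values were compared by two-sided exact permutation. A circle naming several genes was given to 1 of them where only that one was neither a provisional model nor a small RNA, and otherwise to the combination. Named circles are the 10 most abundant (1 is not reported here), those that passed and the 5 of lowest p, the leading hosts, and extremes of span, ratio and ONT reads. The members and gene lists were chosen with earlier results of these data known. No ONT table of wild type replicate 1 and no CIRI2 table of Adar1-2KO replicate 1 was analysed here.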

Additional observations from a re-analysis of the deposited data

How the results depend on the processing

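For Adar2KO against wild type the count of intron circles that passed on Illumina was 0 in every setting but 1. With no filter on low counts it was 20 of 29728, with 0.0455% of all 208914 circles. With 1 library left out it stayed at 0. For Adar1-2KO against wild type the 2 became 20 with DESeq2 (0.47% of all circles) and 71 of 29728 with no filter (0.208% of all circles). They became 4 of 3639 with CIRI2 counts, with 0.0537% of all circles. With DESeq2 size factors there was 1, with 0.0444% of all circles, and with a minimum of 10 reads 1, with 0.075%. With 1 library left out the count ran from 1 to 5. For Adar1-2KO against Adar2KO the 1 became 27 with DESeq2 (0.454% of all circles) and 64 of 29728 with no filter (0.178% of all circles). It became 5 of 3639 with CIRI2 counts (0.0582% of all circles) and 2 at an adjusted p under 0.1 (0.0522%). With 1 library left out the count ran from 0 to 5. The highest left-out count, 5 in each of these comparisons, came without Adar1-2KO replicate 3, with 0.123% and 0.0747% of all circles. The libraries of 1 flow cell hold 1 Adar1-2KO and 1 Adar2KO library, so no count is given there for Adar1-2KO. On ONT, no filter gave 1 and 2 of 2362 intron circles for Adar2KO and Adar1-2KO against wild type, with 0.0499% and 0.0692% of all circles. DESeq2 gave 1 for the latter, with 0.482% of all circles. Leaving out a library gave 0 to 0 in both. For Adar1-2KO against Adar2KO it gave 0 to 1, the 1 with 1.24% of all circles. For the circular share, leaving out a library gave 0 to 1, 0 to 1 and 0 to 2 in the 3 comparisons. The highest counts came with 0.168% or 0.247%, 0.44% and 1.23% of all circles. The causes were not tested, beyond the number of circles or libraries that a setting itself changes.

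Same-numbered libraries hardly deviated together (correlations from -0.0305 to 0.0198 over 38297 circles), and the number was not used as a pairing in the main fits. With the replicate number as a block, 1 intron circle passed for Adar1-2KO against wild type (Stxbp5, not A230057D06Rik, edgeR adjusted p = 0.140). Against Adar2KO 1 passed, and 0 in the ONT comparison of these 2 genotypes. Of all circles 0.0522%, 0.0131% and 0.27% passed in these fits. In the check of Adar2KO with wild type every library correlated best with its own number, a hint from the data and not the design.

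The intron share of listed circles in Adar1-2KO minus wild type, -0.434 percentage points, turned to 0.572 with circles of at least 5 reads, to 0.0511 in the libraries of 1 flow cell (a setting chosen after seeing the data) and to 0.479 without Adar1-2KO replicate 3, with a range of -1.10 to 0.479 when 1 library is left out. The Adar2KO difference in median junction ratio, -0.0248, ran from -0.0477 to 0.00433 and turned without wild type replicate 3. The other left-out ranges were 0.273 to 0.779 and 0.122 to 0.206 for the Adar2KO differences in share of circles and of reads, 0.261 to 0.345 for the Adar1-2KO difference in share of reads and 0.0153 to 0.154 for that in junction ratio. Against intergenic in place of exon circles, the differences in median reads (-0.444) and junction ratio (0.00872) no longer passed. Left-out ranges of intron minus exon circles were 9617 to 10015 bases, -3.88 to -1.63 reads (the last without Adar1-2KO replicate 3), 0.282 to 0.311 in ratio and -21.7 to -20.2 points of ONT recovery. Fitted log2 fold changes kept their sign throughout for Stxbp5 (5.05 to 5.95 against wild type) and A230057D06Rik (-9.01 to -8.42).

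The comparison of splice site letters at the ends, its alternatives and the naming of circles that match annotated introns were not run, because no genome or annotation of the files' build was used here. Depth limits the rest: 66.5% of intron circles were listed in 1 library, and 3 libraries a group allow no exact p under 0.1.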

Other observations

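The class was spread over the genome much as exon circles were, with chromosome 7 as the largest departure among those that follow. Chromosome 7 held 7.34% of intron circles and 9.24% of their reads, against 5.24% of exon circles. Chromosome 11 held 5.02% of intron and 6.90% of exon circles, and chromosome 6 held 6.19% and 4.82%. The Snhg14 and A230057D06Rik circles lie on chromosome 7.

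Adar1-2KO replicate 3 listed few circles in 1 library only, 434 against 1394 to 2951 in the others, but many of them were large. It had 121 intron circles of at least 50 reads that no other library listed, with 23833 reads, while the other libraries had 2 to 14 such circles each. These circles made up most of its 27617 single-library intron reads, which were 18.0% of its intron reads, against 11.2% to 15.7% elsewhere.

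In some hosts intron circles held as many reads as exon circles or more. Foxp1, a transcription factor of the forkhead family, had 5498 intron and 5498 exon circle reads. Kcnip4, a potassium channel interacting protein, had 803 intron and 425 exon circle reads, Rbfox3, a neuronal splicing factor, 1923 and 1482, and Lhfpl3, of the oligodendrocyte lineage list, 427 and 44.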
